A study of Mus musculus with 6 samples.

Results

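The chromosome 11 genes Tob1, Stac2, Gm12352, Gm12359, Gosr2, C130046K22Rik and Cyb561 were followed in liver RNA-seq of mice that lack Zpbp2, a gene of the same chromosome. These 7 genes were selected on their counts and fold changes between the same Zpbp2 KO and WT livers, so their differences are given below as a description, without a test. All 7 were found by symbol among the 37991 gene IDs of the count table, and all 7 were among the 14686 genes that passed the filter on low counts. C130046K22Rik and Stac2 passed that filter only through the group in which they were high. Zpbp2 KO livers came from 3 B6.Zpbp2-/- males and WT livers from 3 C57BL/6J males, all of them 12 weeks old, with 1 poly(A)-selected, directional library per animal. C57BL/6J is the labelled strain of both groups, and no treatment is named for either.

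Zpbp2 encodes zona pellucida binding protein 2, a sperm protein. A targeted allele that is made in cells of another mouse strain and then crossed onto C57BL/6J carries donor DNA on either side of the target, and genes in that stretch can differ in transcript level through their own sequence. How this allele was made, on which strain, and what part of the gene it removes is not stated in the sources used here. Counts per gene hold no sequence variants, so the part of flanking DNA in the values below was not tested.

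Among the 7 genes, 4 encode proteins. Tob1 encodes a protein of the TOB and BTG family that brings the CCR4-NOT deadenylase to mRNAs and restrains cell growth. Gosr2, also called membrin, encodes a SNARE protein of the Golgi that serves transport from the endoplasmic reticulum. Cyb561 encodes a membrane cytochrome that passes electrons from ascorbate across the membrane of secretory vesicles, best known from chromaffin granules. Stac2 encodes an adaptor protein that binds voltage-gated calcium channels. The other 3 are noncoding: Gm12352 and Gm12359 are annotated as antisense transcripts, and C130046K22Rik as a processed transcript.

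In gene order along chromosome 11, the 7 lay at very different distances from Zpbp2. Counted in annotated genes of the table (GENCODE M21 order), Gm12352 was 4 genes before Zpbp2, Gm12359 was 15 genes after it and Stac2 was 24 genes before it. Tob1 was 186 genes before it, Gosr2 286 and C130046K22Rik 287 genes after it, and Cyb561 329 genes after it. Thus 3 of the 7 were close neighbours of Zpbp2, and the other 4 lay 186 to 329 annotated genes away.

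Gosr2 and C130046K22Rik are neighbours that start back to back on opposite strands, their RefSeq starts being 1 base apart. Their RefSeq spans do not overlap, whereas their GENCODE M21 spans do. The bases before the Gosr2 start thus lie, on the other strand, at the beginning of the RefSeq span of C130046K22Rik. The sequence is shown because both genes of this pair differed between the genotypes, in opposite directions. The Tob1 promoter is shown beside it as that of the most abundant of the 7 genes. Both are the 250 bases before the start in RefSeq (build GRCm38.p6), written 5′ to 3′ on the strand of the gene. Gosr2 is chr11:103697724-103697973 on the minus strand and Tob1 is chr11:94211204-94211453 on the plus strand. Capitals mark matches to the cAMP response element TGACGTCA, its core TGACG, the CCAAT box and the TATA box TATAAA on either strand.
Gosr2: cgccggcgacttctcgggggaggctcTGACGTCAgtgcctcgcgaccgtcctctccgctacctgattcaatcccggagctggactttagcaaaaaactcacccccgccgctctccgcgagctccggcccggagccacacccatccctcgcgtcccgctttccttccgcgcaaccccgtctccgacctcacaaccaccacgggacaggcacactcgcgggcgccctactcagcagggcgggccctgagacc
Tob1: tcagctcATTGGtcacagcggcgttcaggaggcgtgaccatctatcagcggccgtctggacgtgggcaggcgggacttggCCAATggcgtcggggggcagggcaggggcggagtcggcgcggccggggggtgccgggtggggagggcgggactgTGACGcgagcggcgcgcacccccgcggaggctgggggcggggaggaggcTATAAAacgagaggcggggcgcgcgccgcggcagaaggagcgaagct

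The Gosr2 stretch holds 1 full match to TGACGTCA, from base -224 to base -217 counted from the start, and 1.55% of the 32851 RefSeq promoters of this length hold such a match. The Tob1 stretch holds the core TGACG at -96 to -92 (17.8% of promoters, full matches included), CCAAT in both orientations (33.8%) and TATAAA at -47 to -42 (12.4%). GGGCGG, the GC box, which is not capitalised, was found in both stretches and in 32.7% of promoters. CCGGAAGT (2.88% of promoters) and CACGTG (6.02%) were also searched on both strands and were in neither of the stretches shown. Their GC content was 68.0% for Gosr2 and 73.6% for Tob1, against a median of 52.4% over all promoters. The stretch of the same length before the C130046K22Rik start is not shown. Counted from that start, it holds CCGGAAGT in reverse orientation at -13 to -6. It also holds the core TGACG at -66 to -62 and GGGCGG at -131 to -126, but no full match to TGACGTCA. Such matches describe letters only.

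The libraries held 47821653 to 51328826 counts in the Zpbp2 KO group and 37904891 to 52955687 in the WT group. Zpbp2 itself (ENSMUSG00000017195) had 0 counts in each Zpbp2 KO liver, against 4, 13 and 7 counts in WT replicates 1, 2 and 3. Hepatocyte markers, 7 of 7 detected, summed to 103000 to 108000 CPM (counts scaled to a common library size) in Zpbp2 KO and 95500 to 103000 CPM in WT livers. WT replicate 1 stood apart in 5 skeletal muscle markers, for example Acta1 with 2069 counts and Ckm with 1043. The 5 markers together gave 0.0209 to 0.175 CPM in Zpbp2 KO livers and 0.112 to 104 CPM in WT livers. Without WT replicate 1 the log2 fold changes were -0.75 for Tob1, 2.37 for Stac2, 0.94 for Gm12352, -0.95 for Gm12359, 0.48 for Gosr2 and -2.49 for Cyb561, beside the values with it given below. Of the lists for other cell types, all 7 of 7 T and NK cell markers and all 5 of 5 B cell markers had a higher Zpbp2 KO mean. The T and NK cell markers summed to 2.89 to 4.67 CPM in Zpbp2 KO and 1.81 to 3.93 CPM in WT livers, and the B cell markers to 4.17 to 8.45 CPM in Zpbp2 KO and 3.42 to 5.87 CPM in WT livers. Zpbp2 KO replicate 2 also stood apart, with the lowest level of the 6 livers in 6 of 6 Kupffer cell markers and 6 of 6 endothelial markers. Clec4f, for example, had 131, 47.9 and 124 CPM in Zpbp2 KO replicates 1, 2 and 3, against 99.0, 83.8 and 84.8 CPM in WT replicates 1, 2 and 3. Without Zpbp2 KO replicate 2 the log2 fold changes were -0.60 for Tob1, 2.65 for Stac2, 0.84 for Gm12352, -1.07 for Gm12359, 0.52 for Gosr2 and -2.10 for Cyb561. All 6 of 6 Kupffer cell markers had a higher Zpbp2 KO mean, the low replicate included, with sums of 106 to 341 CPM in Zpbp2 KO and 186 to 262 CPM in WT livers. Erythroid markers, 5 of 5 with a higher Zpbp2 KO mean, summed to 170 to 359 CPM in Zpbp2 KO and 154 to 227 CPM in WT livers. The sums overlapped between the groups in these lists and in those for endothelial cells (108 to 273 CPM in Zpbp2 KO, 170 to 243 CPM in WT), stellate cells (201 to 274 CPM in Zpbp2 KO, 213 to 263 CPM in WT), cholangiocytes (44.2 to 78.4 CPM in Zpbp2 KO, 49.9 to 72.8 CPM in WT) and sperm (0.0575 to 0.105 CPM in Zpbp2 KO, 0.0524 to 0.172 CPM in WT). The Zpbp2 KO mean was higher in 5 of 7 hepatocyte, 2 of 6 endothelial, 3 of 6 stellate, 4 of 5 cholangiocyte and 2 of 6 sperm markers. It was higher in 0 of 5 skeletal muscle, 4 of 7 chromaffin and neuroendocrine and 3 of 5 neuron markers. Over all tested genes 7764 of 14686 had a log2 fold change above 0. The part of these cell types in the values below was not tested.

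Over all tested genes, edgeR's quasi-likelihood test called 2 after Benjamini-Hochberg adjustment (0.0136%), and 0 of the 1227 tested on chromosome 11. At an unadjusted p below 0.05 there were 86 on chromosome 11 (7.01%), the 7 included, against 5.79% of all tested genes. DESeq2's Wald test called 76 genes in all (0.518%) and 8 on the chromosome, 4 of them among the 7. With limma-voom, 2 genes in all (0.0136%) and 1 on the chromosome, also of the 7, were called. These counts rest on the comparison from which the 7 were picked, so nothing is read from them for the 7. For each of the 7 the Zpbp2 KO and WT livers did not overlap, with 3 genes higher and 4 lower in the knockout, which follows from how they were picked. Over all tested genes 11.6% had no overlap, 5.56% higher and 6.01% lower in the knockout. An absolute log2 fold change of at least 1 was seen in 1.48% of all tested genes, and of at least 2 in 0.123%. Where a level is lower in whole liver, fewer cells that transcribe the gene and less RNA per cell cannot be told apart.

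**Figure D1:**
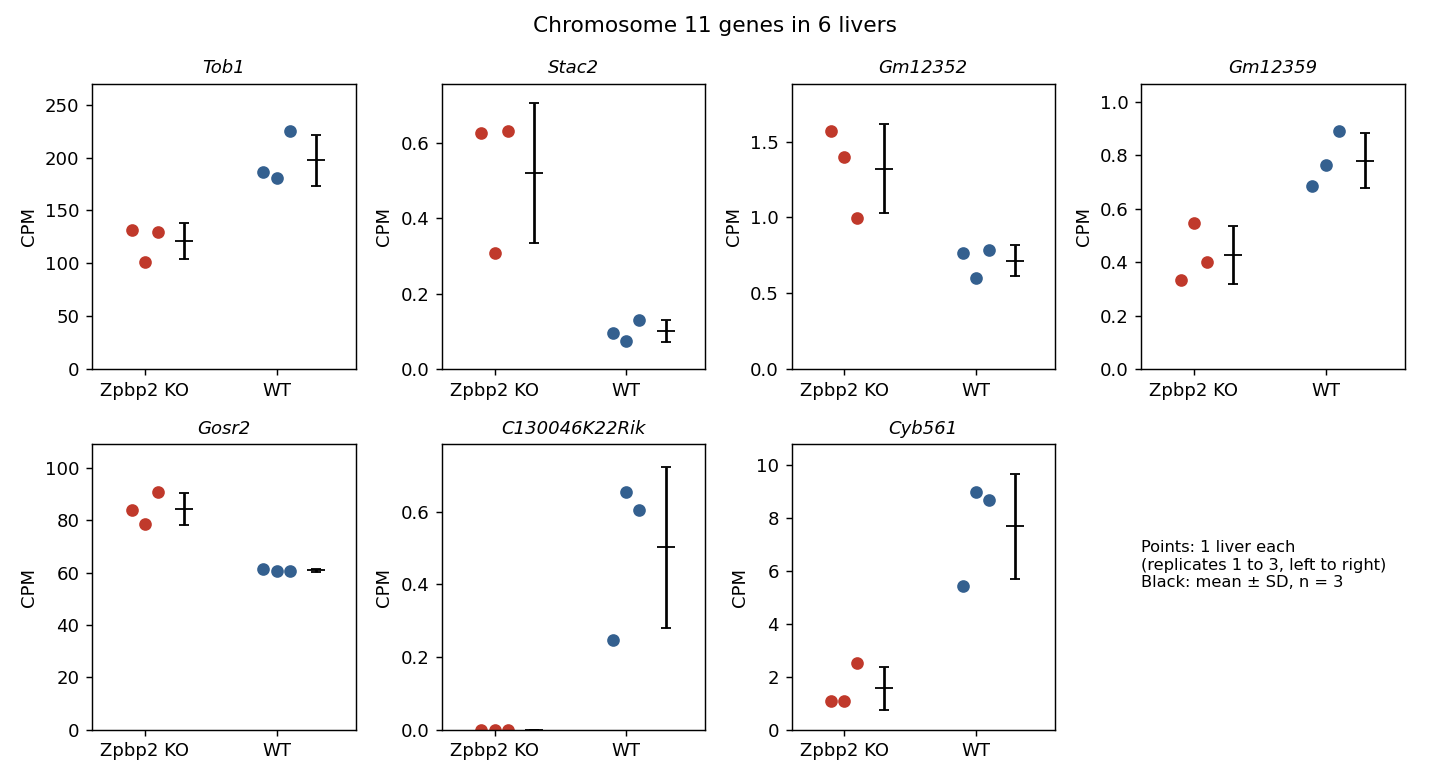
CPM of the 7 genes, Zpbp2 KO livers (red, left) and WT livers (blue, right) with 1 point per liver, and the mean ± SD of 3 livers in black. The groups do not overlap in any panel, C130046K22Rik lies at 0 in every Zpbp2 KO liver, and Cyb561 is higher in Zpbp2 KO replicate 3 than in the other 2 of its group.

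C130046K22Rik (ENSMUSG00000085154, plus strand) was not detected in the knockout livers. Its counts were 0, 0 and 0 in Zpbp2 KO replicates 1, 2 and 3, against 13, 35 and 23 in WT replicates 1, 2 and 3. A count of 0 allows up to 3 counts, which is 0.0575 to 0.0658 CPM in a Zpbp2 KO library, below the 0.248 CPM of the lowest WT liver. These limits cover counting error only. The WT mean was 0.501 ± 0.221 CPM (SD, n = 3). With the limit of 3 counts set over the whole Zpbp2 KO group, the transcript was at least 24.3-fold lower there. The bound was 16.3-fold, 16.7-fold and 15.6-fold without Zpbp2 KO replicate 1, 2 or 3, since fewer libraries raise the limit.

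Across the whole table this pattern was rare. C130046K22Rik, itself picked for its difference, was the only ID with 0 counts in every Zpbp2 KO liver and at least 10 in every WT liver. At a minimum of 4 counts, which is also the lowest WT count of Zpbp2, the pattern held for 2 of the 37991 IDs, Zpbp2 and C130046K22Rik. Only 19127 to 19777 IDs had a count in any 1 library, and IDs with few WT counts cannot show the pattern. Since C130046K22Rik was picked on these same counts, nothing is read from this rarity. The opposite pattern, 0 in every WT liver, held for 0 IDs at a minimum of 10 counts and for 1 ID, which matched no symbol, at 4. At a minimum of 2 counts 7 IDs were absent in Zpbp2 KO, and the 2 on chromosome 11 were Zpbp2 and C130046K22Rik. Absent in WT were 7, 0 of them on chromosome 11. At a minimum of 1 count it was 52 IDs absent in Zpbp2 KO, 8 of them on chromosome 11, and 54 absent in WT, 4 of them on chromosome 11. That chromosome holds 8.43% of the IDs matched to the annotation, whereas the 52 and 54 were counted over all 37991 IDs. The 8 include Zpbp2 itself and the picked C130046K22Rik, so nothing is read from their share.

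Gm11642, the next annotated gene after C130046K22Rik on the same strand, was among those 8. It had 0, 0 and 0 counts in Zpbp2 KO replicates 1, 2 and 3, against 1, 3 and 3 in WT replicates 1, 2 and 3. In RefSeq the span of C130046K22Rik takes in the GENCODE position of Gm11642. These numbers are at the limit of detection, and no fold is given.

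Gosr2 (ENSMUSG00000020946, minus strand), on the other side of the shared start, was higher in each knockout liver. It had 4015, 3582 and 4746 counts in Zpbp2 KO replicates 1, 2 and 3, against 3229, 3243 and 2317 in WT replicates 1, 2 and 3. Scaled to depth that was 84.0, 78.5 and 90.9 CPM in Zpbp2 KO livers, against 61.6, 60.6 and 60.7 CPM in WT livers. The WT livers were nearly alike and every Zpbp2 KO liver lay above them. Means were 84.5 ± 6.21 CPM in Zpbp2 KO and 61.0 ± 0.532 CPM in WT livers (SD, n = 3), with a log2 fold change (Zpbp2 KO over WT, ± SE) of 0.47 ± 0.0932.

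Per 100 Gosr2 counts, C130046K22Rik gave 0, 0 and 0 in Zpbp2 KO livers and 0.403, 1.08 and 0.993 in WT livers. On the scale of counts the noncoding transcript was thus a small fraction of its neighbour in WT liver. The nearest tested genes outside the pair missed the edgeR threshold, as did every tested gene of chromosome 11, this pair included. Plekhm1 had a log2 fold change of -0.18 ± 0.144 (edgeR adjusted p = 0.826) and Wnt9b, which encodes a WNT ligand, 0.21 ± 0.299 (edgeR adjusted p = 0.891).

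Cyb561 (ENSMUSG00000019590, minus strand) had the lowest ratio of Zpbp2 KO to WT levels among the protein-coding genes of the 7. Counts were 51, 50 and 131 in Zpbp2 KO replicates 1, 2 and 3, against 284, 481 and 331 in WT replicates 1, 2 and 3. As CPM these were 1.07, 1.10 and 2.51 in Zpbp2 KO livers, against 5.41, 8.98 and 8.68 in WT livers. Zpbp2 KO replicate 3 was above the other livers of its group and still below every WT liver. The means were 1.56 ± 0.825 CPM in Zpbp2 KO and 7.69 ± 1.98 CPM in WT livers (SD, n = 3), or 0.202 times the WT level, and the log2 fold change was -2.29 ± 0.369. Without Zpbp2 KO replicate 3 it was -2.83 ± 0.293.

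The genes on either side of Cyb561 gave smaller differences. Cyb561 was picked for its difference and they were not, so nothing is read from this. Tanc2, the nearest tested gene before Cyb561, had -0.28 ± 0.184 (edgeR adjusted p = 0.798). Ace, which encodes angiotensin-converting enzyme and is the nearest after it, had -0.16 ± 0.285 (edgeR adjusted p = 0.921). Its relatives in the cytochrome b561 family, 4 tested genes on other chromosomes, had 0 members called and 0 at an unadjusted p below 0.05. Cybrd1, a duodenal iron reductase and the relative with the smallest p, stood at 0.252 ± 0.0662 CPM in Zpbp2 KO and 0.170 ± 0.0845 CPM in WT livers (SD, n = 3). Of 7 chromaffin and neuroendocrine markers, Th, Dbh and Pnmt had 0 counts in all 6 livers. The 7 together came to 0.747 to 1.07 CPM in Zpbp2 KO and 0.729 to 0.934 CPM in WT livers. Most of that was Syp, with 0.747 to 0.962 CPM in Zpbp2 KO and 0.691 to 0.915 CPM in WT livers.

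Stac2 (ENSMUSG00000017400, minus strand) was higher in the knockout at a very low level. It had 30, 14 and 33 counts in Zpbp2 KO replicates 1, 2 and 3, against 5, 4 and 5 in WT replicates 1, 2 and 3. That made 0.627, 0.307 and 0.632 CPM in Zpbp2 KO livers, against 0.0953, 0.0747 and 0.131 CPM in WT livers. The lowest Zpbp2 KO liver still held more than the highest WT liver. Mean levels were 0.522 ± 0.186 CPM in Zpbp2 KO and 0.100 ± 0.0285 CPM in WT livers (SD, n = 3), 5.2 times as high in the knockout, with a log2 fold change of 2.39 ± 0.438.

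Rpl19, a ribosomal protein gene just before Stac2, had a log2 fold change of 0.29 ± 0.130, and Fbxl20, just after it, -0.08 ± 0.115. Both missed the threshold, as did every tested gene of chromosome 11, Stac2 included. The edgeR adjusted p was 0.798 for Rpl19 and 0.898 for Fbxl20. In the STAC family, Stac3 on chromosome 10, which couples excitation to contraction in skeletal muscle, lay the other way. It stood at 0.825 ± 0.372 CPM in Zpbp2 KO and 1.78 ± 0.277 CPM in WT livers (SD, n = 3), with -1.11 ± 0.331 (edgeR adjusted p = 0.714). Without WT replicate 1, the library with the muscle markers, Stac3 had -1.24 ± 0.363. Stac was below the filter. Of 5 neuron markers 2 were tested, and the 5 summed to 13.0 to 14.8 CPM in Zpbp2 KO and 9.88 to 15.8 CPM in WT livers. Most of that was Syt1, with 12.4 to 13.7 CPM in Zpbp2 KO and 9.12 to 15.1 CPM in WT livers.

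Tob1 (ENSMUSG00000037573, plus strand) was the most abundant of the 7 and was lower in each knockout liver. It had 6270, 4605 and 6763 counts in Zpbp2 KO replicates 1, 2 and 3, against 9762, 9715 and 8592 in WT replicates 1, 2 and 3. In CPM that was 131, 101 and 130 in Zpbp2 KO livers, against 186, 181 and 225 in WT livers. WT replicate 3 was the highest of the 6. The group means were 121 ± 17.0 CPM in Zpbp2 KO and 198 ± 24.0 CPM in WT livers (SD, n = 3), and the log2 fold change was -0.71 ± 0.136.

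Beside it, B230206L02Rik had -0.09 ± 0.460 (edgeR adjusted p = 0.981) and Luc7l3, a splicing factor gene, 0.20 ± 0.125 (edgeR adjusted p = 0.798).

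Other genes of the TOB and BTG family share the antiproliferative domain of Tob1. All 4 of 4 tested relatives were below 0, while over all tested genes 7764 of 14686 were above 0. Their median log2 fold change was -0.39, beside 0.01 over all tested genes, while 0 were called and 0 reached an unadjusted p below 0.05. Btg1, the relative with the smallest p, had 45.3 ± 6.65 CPM in Zpbp2 KO and 55.6 ± 4.79 CPM in WT livers (SD, n = 3), with -0.30 ± 0.130 (edgeR adjusted p = 0.798). Btg2, a p53 target, had -0.52 ± 0.356 with overlap between the groups. Tob2 and Btg1 overlapped too, whereas Btg3 did not, at 1.32 ± 0.0355 CPM in Zpbp2 KO and 1.64 ± 0.215 CPM in WT livers (SD, n = 3). Of 14 genes of the CCR4-NOT complex and its partners, to which TOB proteins bind, 0 were called, 1 was lower and 0 were higher at an unadjusted p below 0.05. The median there was -0.04, and 2.93% of all tested genes were lower at that p. That gene was Cnot1, the scaffold of the complex, at 94.6 ± 14.2 CPM in Zpbp2 KO and 120 ± 11.5 CPM in WT livers (SD, n = 3), with an edgeR adjusted p = 0.798.

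For Gosr2 the corresponding list was 15 other tested SNAREs and partners of the endoplasmic reticulum and Golgi. Of these 0 were called, 1 was higher and 0 were lower at an unadjusted p below 0.05, 11 were above 0 and the median log2 fold change was 0.08. Over all tested genes 7764 of 14686 were above 0 and 2.86% were higher at that p. The higher one was Bnip1, a SNARE of retrograde transport, with 22.1 ± 3.03 CPM in Zpbp2 KO and 17.8 ± 0.960 CPM in WT livers (SD, n = 3) and an edgeR adjusted p = 0.798. Gosr1, the other Golgi SNARE of this name and also on chromosome 11, had 39.5 ± 2.01 CPM in Zpbp2 KO and 41.7 ± 1.10 CPM in WT livers (SD, n = 3). Its log2 fold change was -0.08 ± 0.0908.

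The antisense transcripts Gm12352 and Gm12359 lie within or across protein-coding genes on the opposite strand. The GENCODE spans of C130046K22Rik and Gosr2 overlap in the same way. The libraries were directional, but the sources used here do not state the strand setting of the counting, so their reads and those of the overlapping genes may not have been told apart. Each is therefore set beside its partner.

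Gm12352 (ENSMUSG00000084835) overlaps Mien1, which encodes a small protein named for enhanced migration and invasion. Gm12352 had 75, 64 and 52 counts in Zpbp2 KO replicates 1, 2 and 3, against 40, 32 and 30 in WT replicates 1, 2 and 3. Its means were 1.32 ± 0.294 CPM in Zpbp2 KO and 0.716 ± 0.103 CPM in WT livers (SD, n = 3), which gave a log2 fold change of 0.89 ± 0.269. Mien1 lay the same way. It had 2804, 2790 and 2108 counts in Zpbp2 KO replicates 1, 2 and 3, against 1628, 1788 and 1474 in WT replicates 1, 2 and 3. Mien1 averaged 53.4 ± 11.3 CPM in Zpbp2 KO and 34.4 ± 3.89 CPM in WT livers (SD, n = 3), with 0.64 ± 0.168 and no overlap (edgeR adjusted p = 0.659).

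Per 100 Mien1 counts, Gm12352 gave 2.67, 2.29 and 2.47 in Zpbp2 KO livers and 2.46, 1.79 and 2.04 in WT livers. The groups overlapped in this ratio, with means of 2.48 ± 0.191 in Zpbp2 KO and 2.09 ± 0.337 in WT livers (SD, n = 3). Grb7, the next tested gene toward Zpbp2 and an adaptor of receptor tyrosine kinases, had a log2 fold change of -0.08 ± 0.163 (edgeR adjusted p = 0.930).

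Gm12359 (ENSMUSG00000075576) overlaps Msl1, a scaffold of a histone acetyltransferase complex, and Casc3, a component of the exon junction complex. Gm12359 had 16, 25 and 21 counts in Zpbp2 KO replicates 1, 2 and 3, against 36, 41 and 34 in WT replicates 1, 2 and 3. It averaged 0.428 ± 0.109 CPM in Zpbp2 KO and 0.781 ± 0.103 CPM in WT livers (SD, n = 3), which gave a log2 fold change of -0.86 ± 0.289. Unlike Mien1, neither partner of Gm12359 differed by much. Msl1 had 64.4 ± 1.58 CPM in Zpbp2 KO and 66.2 ± 8.02 CPM in WT livers (SD, n = 3), and Casc3 had 26.5 ± 2.05 CPM in Zpbp2 KO and 26.2 ± 1.33 CPM in WT livers. The groups overlapped for both.

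Relative to Msl1, Gm12359 gave 0.506, 0.868 and 0.631 per 100 counts in Zpbp2 KO livers and 1.18, 1.03 and 1.34 in WT livers. Relative to Casc3 it gave 1.37, 1.92 and 1.52 per 100 counts in Zpbp2 KO livers and 2.72, 2.76 and 3.48 in WT livers. In both ratios every Zpbp2 KO liver was below every WT liver, whereas the groups overlapped in the ratio of Gm12352 to Mien1. Gm12359 was picked for its difference and its partners differed little, so its ratios add nothing to its counts.

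**Figure D2:**
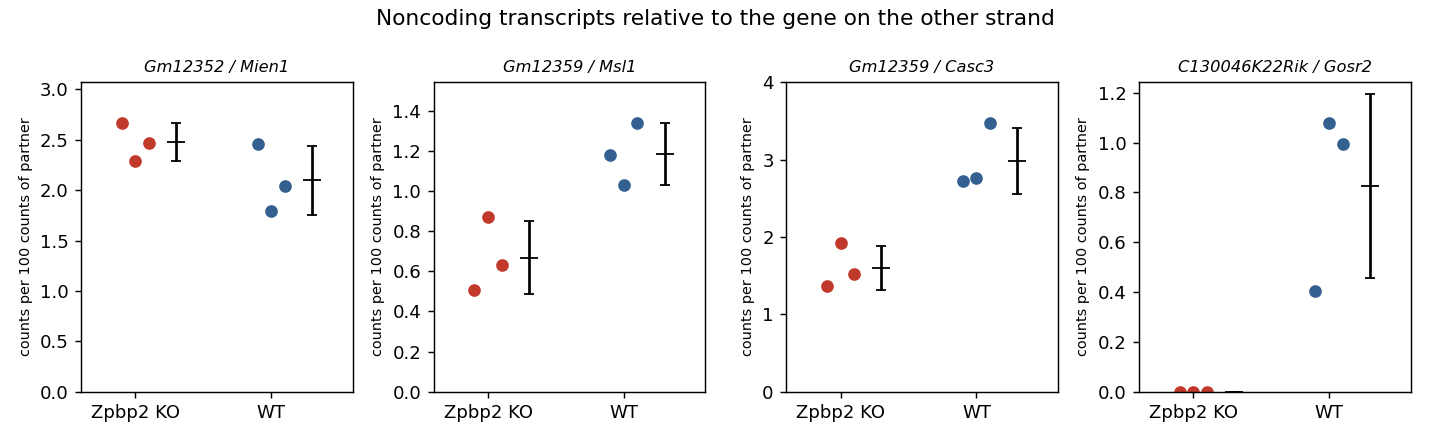
Counts of a noncoding transcript per 100 counts of the gene on the opposite strand, with 1 point per liver (Zpbp2 KO red, left; WT blue, right) and the mean ± SD of 3 livers in black. The groups overlap for Gm12352 over Mien1 and lie apart for Gm12359 over Msl1 or Casc3, and C130046K22Rik over Gosr2 is 0 in every Zpbp2 KO liver.

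Levels of the 7 genes spanned a wide range when divided by exon length (CPM per kilobase of exon, GENCODE M21 lengths, mean of 6 livers). Tob1, at 69.5, lay above 95.4% of 14247 tested genes with a length, and Gosr2, at 22.3, above 88.2%. Gm12352 stood at 1.34 and Cyb561 at 1.27, above 35.6% and 34.5% of genes. Gm12359 at 0.332 and C130046K22Rik at 0.321 were above 16.4% and 16.1%, and Stac2 at 0.0992 above 5.41%.

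On the same scale by genotype, the order of the lower genes differed. In Zpbp2 KO livers Gm12352 had 1.74 ± 0.387, Cyb561 0.426 ± 0.226, Gm12359 0.235 ± 0.0599 and Stac2 0.166 ± 0.0594 CPM per kilobase, with C130046K22Rik at 0. In WT livers Cyb561 had 2.11 ± 0.541, Gm12352 0.942 ± 0.135, C130046K22Rik 0.643 ± 0.283, Gm12359 0.428 ± 0.0566 and Stac2 0.0320 ± 0.00908 CPM per kilobase (SD, n = 3 each). In Zpbp2 KO livers, Cyb561, Gm12359 and Stac2 differed from one another, in each pair, by less than the sum of their SDs. In WT livers the same held for C130046K22Rik beside Gm12352 and beside Gm12359.

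Profiles over the 6 livers were compared by the root mean square difference of centred log2 CPM, in which the genotype difference itself weighs most. For C130046K22Rik, at 0 counts in every Zpbp2 KO liver, the log2 CPM there are a floor set by the prior count of 2. Among the 11819 or 11820 other genes averaging 0 or more in log2 CPM, the nearest to C130046K22Rik were Nr4a1 (0.709), Cyb561 (0.762) and Sik1 (0.892), and those to Cyb561 were Il1b (0.435) and Sik1 (0.446). Nr4a1 and Sik1, on chromosomes 15 and 17, encode an orphan nuclear receptor and a salt-inducible kinase, and were the 2 genes called by edgeR. Gm12352 was nearest to Mien1 (0.179), its partner on the other strand, and then to Atp6v0d2 (0.185). Closest to Tob1 were Btbd19 (0.0839) and Fzd7 (0.0982), and to Gosr2 Cpsf4l (0.0716) and the class I histocompatibility gene H2-D1 (0.0758). Trp53inp1 (0.0822) and Tmem267 (0.104) were closest to Gm12359, and Chrna4 (0.467) and Gm10642 (0.519) to Stac2.

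The other genes of the chromosome were described without the 7. Among the 100 tested genes nearest to Zpbp2, 50 on each side, 0 were called, 3 were higher and 1 was lower at an unadjusted p below 0.05. Those 4 of 100 compare with 5.79% of all tested genes, 2.86% higher and 2.93% lower. Their median log2 fold change was 0.03, and the median absolute log2 fold change was 0.155, beside 0.01 and 0.145 over all tested genes. In this stretch the groups did not overlap for 11 of the 100 genes, against 11.6% of all tested genes.

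Closer in, over the 25 tested genes on each side, the median absolute log2 fold change was 0.213, and 0.118 to 0.265 when each library was left out in turn. Over all tested genes it was 0.145, and 0.138 to 0.190 with the same libraries left out. These ranges overlap, but they rest on the same livers and are no error limits. The median SD between livers (log2) was 0.227 in these 50 genes, against 0.207 over all tested genes. Whether the medians differ was not tested. Among those 50 genes, 3 (6.0%) had an unadjusted p below 0.05, against 5.79% of all tested genes. All 3 were higher in the knockout, namely Rapgefl1, Mien1 and Gm10039, against 2.86% of all tested genes. Gm10039 lay 125 annotated genes after Zpbp2, since many genes in between were not tested. Rapgefl1, named as a guanine nucleotide exchange factor-like gene and 2 genes after Gm12359, had 58, 49 and 52 counts in Zpbp2 KO replicates 1, 2 and 3, against 26, 22 and 26 in WT replicates 1, 2 and 3. Its log2 fold change was 1.06 ± 0.275 (edgeR adjusted p = 0.659).

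**Figure D3:**
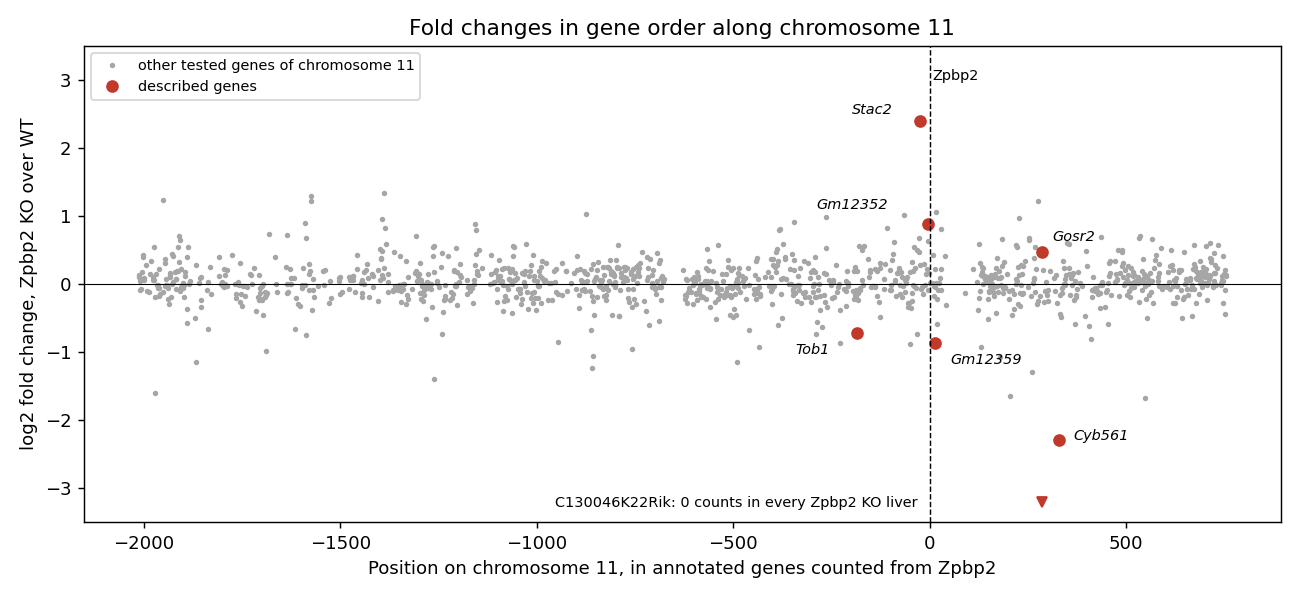
Log2 fold change (Zpbp2 KO over WT) of the 1227 tested genes of chromosome 11 against their position in annotated genes counted from Zpbp2 (dashed line); the described genes are red and the triangle marks C130046K22Rik, whose fold has only a lower bound. Stac2, Gm12352 and Gm12359 lie close to the line, Tob1 before it, and Gosr2, C130046K22Rik and Cyb561 further after it.

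Between Tob1 and Cyb561, the outermost of the 7, there were 212 other tested genes. Of these 0 were called and 18 (8.49%) had an unadjusted p below 0.05, against 5.68% of the 13459 tested genes of other chromosomes. Both ends of this stretch were picked for their difference in these data, so nothing is read from its share. Set by position around Zpbp2, the share was 6.0% with 25 tested genes a side, 4.0% with 50 and 7.5% with 100. Without the 7, chromosome 11 had 79 of 1220 genes (6.48%) at an unadjusted p below 0.05, between chromosome 3 with 6.56% and chromosome 17 with 6.42%. With the 7, which were picked for their difference, the share was 7.01%. Over all chromosomes it ran from 3.37% on chromosome 14 to 7.94% on chromosome 18. The median absolute log2 fold change on chromosome 11 without the 7 was 0.147, and the highest of any chromosome was 0.158, on chromosome 12.

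Outside the 7, the chromosome 11 genes with the smallest p were Cpeb4, Kpna2 and Ifi35, picked here for their values. Cpeb4, a regulator of cytoplasmic polyadenylation 1587 genes before Zpbp2, had 54.4 ± 1.86 CPM in Zpbp2 KO and 91.2 ± 13.9 CPM in WT livers (SD, n = 3) and a log2 fold change of -0.74 ± 0.125 (edgeR adjusted p = 0.287). Kpna2, a nuclear import receptor 370 genes after Zpbp2, had -0.59 ± 0.128, and Ifi35, an interferon-induced gene 185 genes after it, 0.67 ± 0.146 (edgeR adjusted p = 0.475 for both). The groups did not overlap for any of the 3.

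**Figure D4:**
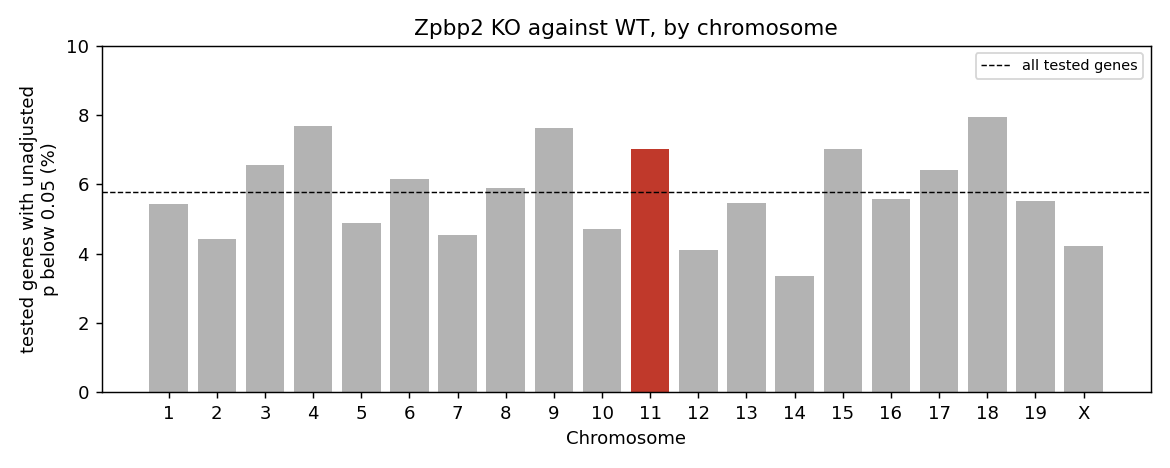
Share of tested genes with an unadjusted p below 0.05 (edgeR, Zpbp2 KO against WT, in percent) for each chromosome, with chromosome 11 in red and the share over all tested genes as a dashed line. The bar of chromosome 11, at 7.01%, includes the 7 genes picked for their difference; without them its share is 6.48%, below chromosomes 3, 4, 9, 15 and 18.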

How the data were processed

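The authors deposited raw counts for each Ensembl gene and liver, without normalization. STAR, Picard, HTSeq and build mm9 are named per the submitters' processing notes; versions, annotation and strand setting are not stated in them. Columns were matched to samples by title. Symbols, gene order, overlaps and exon lengths came from GENCODE M21 (GRCm38), which matched 32938 IDs (86.7%); the rest took 0.337% to 0.423% of each library. As the builds differ, genes are placed by order only. RefSeq (GRCm38.p6) had promoters for 3 of the 7 genes.

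Genes passing filterByExpr of edgeR 4.0.16 (minimum count 10) were scaled by TMM and tested two-sided by its quasi-likelihood F-test in R 4.3.3, with Benjamini-Hochberg adjustment and a threshold of 0.05. CPM use TMM-scaled library sizes, and profiles log2 CPM with a prior count of 2. Limits on counts cover counting error only. The tests were checked on simulated data.

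The 7 genes and all lists were chosen with earlier results of these data known. Named by rule were the 7, Zpbp2, the nearest tested gene on each side of each, the 3 other chromosome 11 genes with the smallest p, the nearest profiles, and from each family list the gene with the smallest p. Rapgefl1, Gm10039, Gm11642, Btg2, Btg3, Tob2, Gosr1 and single markers were named after their values were seen. Alternatives were other scalings and filters, DESeq2 1.42.0, limma-voom (limma 3.58.1), a replicate block and each library left out.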

Additional observations from a re-analysis of the deposited data

How the results depend on the processing

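The log2 fold changes of Tob1, Stac2, Gm12352, Gm12359, Gosr2 and Cyb561 kept their direction under every alternative that gave a value and moved by less than 1 SD between livers. Stac2 and C130046K22Rik were not kept by the filter of 20 counts in 3 libraries. The lower bound for C130046K22Rik was 15.6-fold to 30.5-fold with each library left out. Called genes numbered 12 in all and 2 on chromosome 11 with no filter, over 1913 tested genes of that chromosome and 21000 others. Both were among the 7, which were picked from this comparison, so nothing is read from that. DESeq2 called 76 in all (0.518%) and 8 on chromosome 11, and limma-voom 2 in all (0.0136%) and 1 on chromosome 11. With each library left out, 1 (without Zpbp2 KO replicate 1) to 4 genes (without Zpbp2 KO replicate 2) were called in all. Chromosome 11 genes at an unadjusted p below 0.05 then numbered 57 (without WT replicate 3) to 160 (without Zpbp2 KO replicate 3), which was 4.65% and 13.0% of its tested genes, against 3.63% and 13.4% on other chromosomes. The median absolute log2 fold change of the 100 genes nearest to Zpbp2 was 0.326 with no filter, where genes with very few counts enter. No value over all genes without a filter is given here, so 0.326 cannot be set beside the 0.145 of the filtered genes. The causes were not tested.

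Replicate numbers pair no animals in the labels, and deviations of same-numbered livers correlated at 0.142, 0.197 and -0.237 across genes, and not every liver correlated best with its own number, so the numbers were not taken as pairs. With the replicate block 2 genes were called in all and 0 on chromosome 11. An unadjusted p below 0.05 was then seen in 74 genes of chromosome 11 (6.03%), against 4.99% on other chromosomes.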
